A study of Homo sapiens with 12 samples.

Results

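The extracellular matrix genes described here are the collagens, the laminins, the matrix metalloproteases (MMPs), the tissue inhibitors of metalloproteases (TIMPs), the ADAMTS proteases and the fibrillins, taken by their gene symbols, together with FN1, VCAN, LUM, SPARC, LOX and HTRA3. The symbols matched 110 of the 57152 rows with values in the deposited expression table. By family they were 6 collagen IV genes, 11 fibrillar collagens, 27 other collagens, 12 laminins, 3 fibrillins, 22 MMPs, 19 ADAMTS genes, 4 TIMPs and 6 other matrix genes. RNA was sequenced in 12 libraries of human lung carcinoma cell lines, in 4 groups of 3. The first group was LB cells seeded in 10 mg/ml HPbCD (hydroxypropyl-beta-cyclodextrin, a ring-shaped sugar that carries cholesterol) and given 10 µM amiodarone 24 h later, for a further 24 h (combined treatment). The second was LB cells given 10 µM amiodarone, an antiarrhythmic drug, for 24 h. The third was LB cells given 0.1% DMSO, the vehicle, and the last was A549 cells given 0.1% DMSO. No DMSO percentage is recorded for the groups given amiodarone, so whether they were matched for vehicle is not known. A549 is a line of alveolar epithelial carcinoma origin, and the labels name A549 as the source of the LB cells too. How LB cells were made, and whether they are 1 clone, is not stated in them. All cells were kept in RPMI medium with 10% fetal bovine serum. HPbCD without amiodarone and amiodarone in A549 cells were not analysed here, so HPbCD was compared only in drug-treated cells. The labels do not say that replicates were separate cultures on separate days, so p-values reflect only how these samples vary, and that variation may be technical.

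Epithelial cells rest on a basement membrane, a sheet built from laminin heterotrimers of an alpha, a beta and a gamma chain, and from a collagen IV network. Fibrillar collagens form the stromal fibres beneath it, and fibrillins form the microfibrils of elastic tissue. MMPs and ADAMTS proteases cut these proteins, and TIMPs bind and inhibit MMPs. In the lung the basement membrane of the alveolus carries the gas exchange surface, and its remodelling is a known feature of fibrosis and of carcinoma invasion.

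Levels are given as TPM, a share of transcripts scaled for gene length and library, and tests were made on log2(TPM + 1). TPM keeps no record of sequencing depth, so depth is unknown and no counting error can be given. Of the 110 genes, 47 averaged 1 TPM or more across all 12 libraries and were tested, among 13968 genes that did so. Another 6 were at 0 in every library (COL6A5, COL19A1, MMP3, MMP8, MMP26 and MMP27). Together the 110 genes made up 1399 to 1531 TPM in combined-treatment LB libraries, 1391 to 1496 in LB amiodarone, 1424 to 1533 in LB DMSO and 1509 to 1636 in A549 DMSO libraries. The laminins were the largest family in each library, at 451.2 to 565.1 TPM, followed by the TIMPs at 278.1 to 407.0 TPM. TIMP1, with 192 to 298.06 TPM, was the most abundant gene in 10 of the 12 libraries, and LAMA5 was above it in A549 DMSO replicates 1 and 2. The labelled epithelial identity was checked on 10 lung epithelial and alveolar markers, which all averaged 1 TPM or more. Their sum was 3880 to 4534 TPM in combined-treatment LB libraries, 3914 to 4361 in LB amiodarone, 4257 to 4750 in LB DMSO and 7275 to 7813 TPM in A549 DMSO libraries. KRT8 had 1461 to 1653 TPM in combined-treatment LB libraries, 1526 to 1718 in LB amiodarone, 1576 to 1760 in LB DMSO and 3831 to 4221 TPM in A549 DMSO. The epithelial genes EPCAM, CDH1, KRT18 and KRT19 likewise lay lower in LB DMSO than in A549 DMSO libraries, while the surfactant genes SFTPB, SFTPC and SFTPD and the lipid transporter ABCA3 lay higher. NAPSA overlapped between the lines. SFTPC had 527 to 659 TPM in LB DMSO and 0.26 to 0.8 TPM in A549 DMSO. The part of these markers in the results was not tested. Endothelial markers summed to at most 0.89 TPM. Leukocyte markers, nearly all CD14, summed to 0.89 to 1.04 TPM in combined-treatment LB libraries, 1.18 to 2.58 in LB amiodarone, 2.49 to 3.15 in LB DMSO and 3.09 to 5.85 TPM in A549 DMSO, with CD3E at 0 throughout; their part in the results was not tested. Of 10 fibroblast markers 3 are genes of the set (COL1A1, COL1A2 and COL3A1). The other 7 summed to 12.9 to 21.7 TPM in combined-treatment LB libraries, 18.9 to 25.2 in LB amiodarone, 19.1 to 29.4 in LB DMSO and 19.8 to 29.99 TPM in A549 DMSO. Among them DCN, FAP and PDGFRA stayed at or below 0.74 TPM, while THY1 reached 10.25 and ACTA2 23.25 TPM. Log2 levels correlated across genes at 0.985 to 0.989 within groups and at 0.943 to 0.986 between groups.

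**Figure D1:**
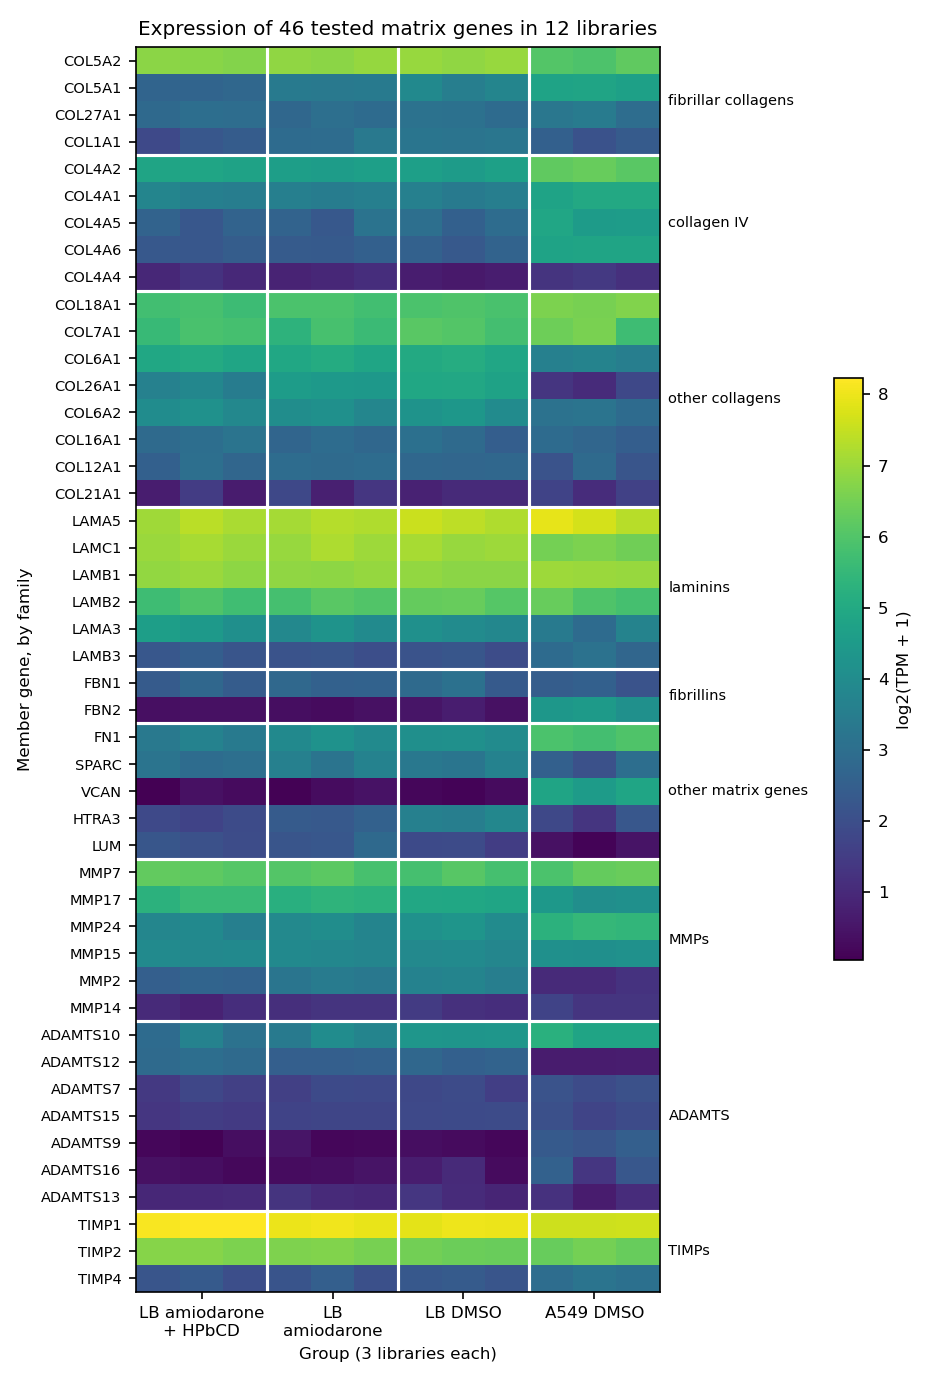
Level of 46 tested matrix genes, as log2(TPM + 1), in each of the 12 libraries, with genes in rows by family and libraries in columns by group. VCAN, FBN2 and COL4A6 are higher in the 3 A549 DMSO columns, and COL26A1, MMP2 and ADAMTS12 in the LB columns.

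All 5 tested collagen IV genes were lower in LB DMSO cells than in A549 DMSO cells, where 18.2% of all 13968 tested genes were lower. Among them COL4A4 passed the filter narrowly, averaging 1.02 TPM over the 12 libraries, with its highest group mean, 1.44 TPM, in A549 DMSO. Its place among the 5 thus follows in part from the filter, and it was tested in 18 of 22 alternative settings. The family summed to 41.4 to 48.5 TPM in LB DMSO and 153 to 162 TPM in A549 DMSO libraries. Collagen IV chain genes lie in head-to-head pairs that are transcribed away from a shared promoter, a known feature of the family. The RefSeq starts (GRCh38.p14) of COL4A1 and COL4A2 on chromosome 13 were 127 bases apart, and those of COL4A5 and COL4A6 on chromosome X 380 bases apart. In the GENCODE 29 annotation the starts were 1421 and 347 bases apart, and there the COL4A1 and COL4A2 genes overlap. The windows from 250 bases before to 50 bases after each start are printed because both genes of each pair differed together between the lines. Capitals mark matches on either strand to 4 motifs, and no matches overlapped. The CCAAT box was searched by the letters of its name. The GC box was searched as GGGCGG and the TATA box as TATAAA. The site of AP-1 was searched as TGANTCA, where N is any base. The windows are at chr13:110307108-110307407, minus strand (COL4A1), chr13:110307034-110307333, plus strand (COL4A2), chrX:108439588-108439887, plus strand (COL4A5) and chrX:108439409-108439708, minus strand (COL4A6).
COL4A1: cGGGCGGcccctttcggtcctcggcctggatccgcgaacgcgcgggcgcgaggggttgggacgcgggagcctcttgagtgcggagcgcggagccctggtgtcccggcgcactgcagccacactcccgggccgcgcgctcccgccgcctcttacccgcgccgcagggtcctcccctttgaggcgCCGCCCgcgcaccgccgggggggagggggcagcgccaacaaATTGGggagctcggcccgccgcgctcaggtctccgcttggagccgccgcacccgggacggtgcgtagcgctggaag
COL4A2: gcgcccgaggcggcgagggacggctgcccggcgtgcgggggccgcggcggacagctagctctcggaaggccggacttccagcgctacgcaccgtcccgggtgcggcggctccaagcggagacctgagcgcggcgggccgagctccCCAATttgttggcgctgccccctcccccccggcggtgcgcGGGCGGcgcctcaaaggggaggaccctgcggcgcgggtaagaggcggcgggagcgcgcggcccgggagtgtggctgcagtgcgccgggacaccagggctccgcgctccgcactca
COL4A5: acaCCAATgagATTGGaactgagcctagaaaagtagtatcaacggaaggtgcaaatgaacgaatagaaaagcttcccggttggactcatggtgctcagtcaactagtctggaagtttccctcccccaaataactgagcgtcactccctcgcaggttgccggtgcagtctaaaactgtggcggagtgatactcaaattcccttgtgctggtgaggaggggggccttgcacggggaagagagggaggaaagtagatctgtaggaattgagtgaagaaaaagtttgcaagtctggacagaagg
COL4A6: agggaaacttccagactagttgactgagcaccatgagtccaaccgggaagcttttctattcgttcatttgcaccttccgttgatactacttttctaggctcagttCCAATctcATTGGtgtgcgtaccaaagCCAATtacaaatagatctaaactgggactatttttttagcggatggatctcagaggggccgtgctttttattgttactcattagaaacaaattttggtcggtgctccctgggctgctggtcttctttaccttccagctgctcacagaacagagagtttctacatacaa
The COL4A1 and COL4A2 windows share 226 bases read in opposite directions, and their bases are 76.7% and 77.7% G or C. The shared stretch holds a CCAAT match and a GC box. The COL4A5 and COL4A6 windows share 121 bases, with 49.3% and 43.7% G or C, and the overlap holds a pair of CCAAT matches facing each other. No TATA box or AP-1 match was found in these 4 windows. A CCAAT match was present in 34.6% of all 35116 RefSeq windows of this length and a GC box in 45.0%. Of the 110 matrix genes 75 had a window, and 26 of them (34.7%) held a CCAAT match, 48 (64.0%) a GC box, 12 (16.0%) a TATA box against 11.5% of all windows, and 5 (6.67%) an AP-1 match against 7.71%. The E-box letters CACCTG were in 12 (16.0%), against 20.6% of all windows.

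COL4A1 and COL4A2 encode the chains of the collagen IV network found in nearly all basement membranes. COL4A1 had 11.2, 9.53 and 10.7 TPM in LB DMSO libraries, against 26.9, 30.9 and 30.4 TPM in A549 DMSO libraries (log2 difference -1.40 ± 0.091 SE, adjusted p = 2.14e-07). COL4A2 had 24.2, 21.9 and 25.1 TPM in LB DMSO and 73.5, 79.2 and 69.8 TPM in A549 DMSO (log2 difference -1.60 ± 0.068 SE, adjusted p = 5.70e-09). The lines did not overlap for either gene. Here and below, overlap only describes the library values, and the share of all genes without overlap was not counted. For genes picked by their adjusted p it is no further support. COL4A2 stayed above COL4A1 per transcript length in every group, with a ratio of 2.26 ± 0.0966 in LB DMSO and 2.53 ± 0.221 in A549 DMSO (SD, n = 3 each). In bulk RNA, fewer cells of a type and less RNA per cell cannot be told apart, and this holds for each line comparison here. COL4A5 and COL4A6, whose chains form a network of skin and smooth muscle basement membranes, were also lower. COL4A5 had 7.17, 4.81 and 6.71 TPM in LB DMSO against 28.7, 22.3 and 22.8 TPM in A549 DMSO (log2 difference -1.83 ± 0.21 SE, adjusted p = 2.83e-05). COL4A6 had 5.03, 4.01 and 5.21 TPM in LB DMSO against 26.5, 27.4 and 27.4 TPM in A549 DMSO (log2 difference -2.29 ± 0.10 SE, adjusted p = 8.95e-09). Again no LB library reached the lowest A549 library. COL4A4, a chain of the lung and kidney network, had 0.63, 0.53 and 0.61 TPM in LB DMSO and 1.44, 1.64 and 1.25 TPM in A549 DMSO (log2 difference -0.62 ± 0.15 SE, adjusted p = 0.00673). Its partner COL4A3, whose RefSeq start lies 419 bases away on chromosome 2, was under the filter and was not tested, at 0.25, 0.60 and 0.18 TPM in LB DMSO and 1.11, 0.74 and 1.2 TPM in A549 DMSO.

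**Figure D2:**
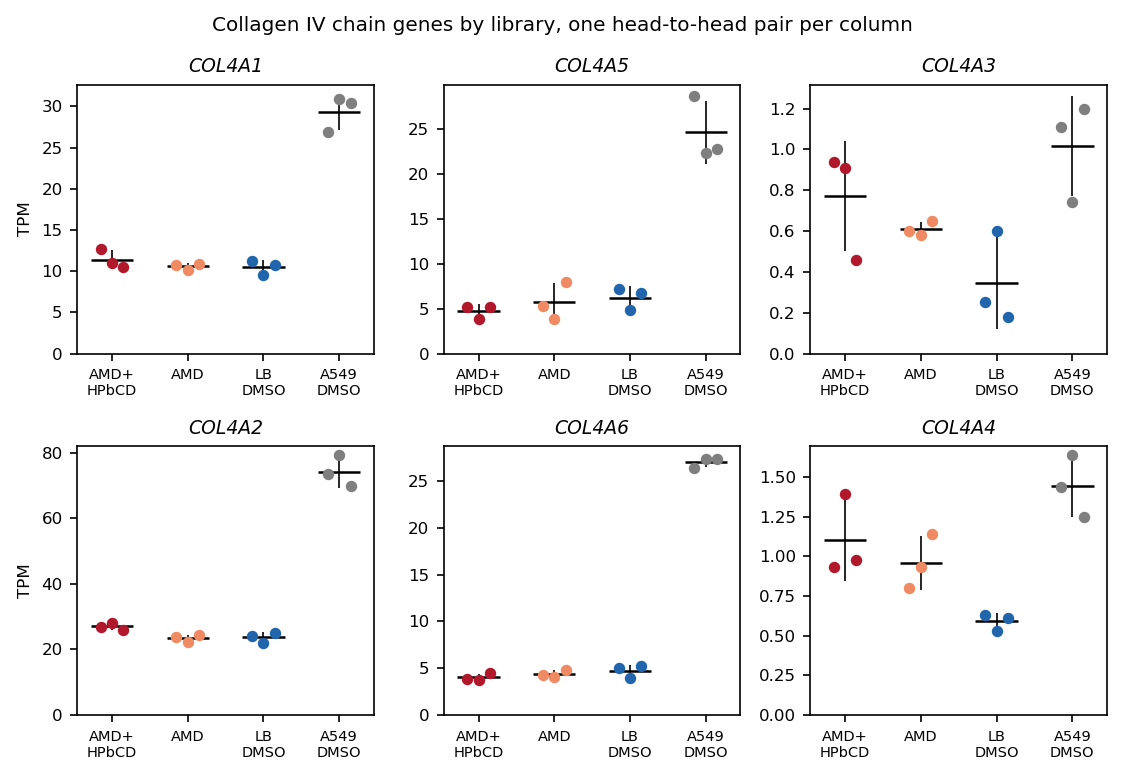
TPM of the 6 collagen IV genes in each library, with one head-to-head pair per column of panels; points are libraries, horizontal lines are group means and vertical lines are SD (n = 3). COL4A1, COL4A2, COL4A5 and COL4A6 are high in A549 DMSO libraries and low in all 9 LB libraries, and the vertical scale differs by panel.

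VCAN, FBN2 and the tested collagen IV genes were lower in LB DMSO than in A549 DMSO cells, and COL26A1, MMP2, ADAMTS12, HTRA3, COL6A1 and COL6A2 were higher. Across all families, 14 of the 47 tested genes were higher and 18 lower in LB DMSO than in A549 DMSO cells (68.1% past an adjusted p of 0.05 with limma), and 15 did not pass. The 18 include VCAN, FBN2, ADAMTS9 and ADAMTS16, which passed the filter only through A549 cells, where they are high. Their part in the lower count thus follows in part from the filter, which COL4A4 passed narrowly, as given above. Among the 14, ADAMTS12 (0.593 TPM) and LUM (0.27 TPM) averaged under 1 TPM in A549 DMSO and passed it through the LB groups. The same limit thus holds for the higher count, and no count without these genes was made. Over all 13968 genes 32.4% passed, 14.2% higher and 18.2% lower. Changes past 2-fold were seen in 18 genes, with VCAN, FBN2, ADAMTS9, ADAMTS16, ADAMTS12 and LUM among them. The share of all genes past 2-fold was not counted, so this count does not set the matrix genes apart. The median log2 difference was -0.19, against -0.035 over all genes. LB DMSO libraries enter 3 of the 4 comparisons, and A549 DMSO libraries this one alone. The calls of LAMB1, LAMA3 and ADAMTS10 were lost when some single libraries were left out, and those values stand beside each gene.

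VCAN, at chr5:83471465-83582303 (positions from GENCODE 29, GRCh38), encodes versican, a large chondroitin sulfate proteoglycan, and differed most. It had 0.13, 0.09 and 0.21 TPM in LB DMSO libraries, against 27.6, 21.9 and 27.9 TPM in A549 DMSO libraries (log2 difference -4.54 ± 0.16 SE, adjusted p = 8.27e-10). FBN2 (chr5:128257909-128659185), a microfibril gene used mostly in development, had 0.42, 0.64 and 0.33 TPM in LB DMSO against 19.5, 21.6 and 16.7 TPM in A549 DMSO (log2 difference -3.79 ± 0.14 SE, adjusted p = 1.30e-09). Both genes had a mean of at least 1 TPM only in A549 cells, so they passed the filter through that group, as did ADAMTS9 and ADAMTS16. FBN1, the main fibrillin of adult tissue, averaged 6.03 ± 1.72 TPM in LB DMSO and 4.28 ± 0.759 TPM in A549 DMSO (SD, n = 3 each), and its groups overlapped (adjusted p = 0.121). FN1 (chr2:215360440-215436172), fibronectin, the adhesive glycoprotein bound by integrins, had 16.3, 16.8 and 14.8 TPM in LB DMSO against 58.7, 53.9 and 61.7 TPM in A549 DMSO (log2 difference -1.80 ± 0.11 SE, adjusted p = 9.04e-08). Each A549 library lay above 50 TPM and each LB DMSO library below 17 TPM. A further 3 matrix genes were higher in LB cells. LUM, lumican, which spaces collagen fibrils, had 2.67, 2.79 and 1.86 TPM in LB DMSO against 0.32, 0.10 and 0.39 TPM in A549 DMSO (log2 difference 1.43 ± 0.19 SE, adjusted p = 1.01e-04). SPARC, a collagen-binding glycoprotein, had 8.97, 8.24 and 11.8 TPM in LB DMSO against 4.80, 3.16 and 6.93 TPM in A549 DMSO (log2 difference 0.88 ± 0.21 SE, adjusted p = 0.007). HTRA3 (chr4:8269765-8307111), a secreted serine protease, had 11.2, 10.8 and 13.4 TPM in LB DMSO against 2.56, 1.49 and 3.77 TPM in A549 DMSO (log2 difference 1.87 ± 0.19 SE, adjusted p = 1.30e-05). None of these 3 overlapped between the lines.

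Among the other collagens the lines differed in the level of some chains. COL26A1 (chr7:101362820-101559024) was the largest rise among the 47, with 29.4, 29.9 and 26.1 TPM in LB DMSO libraries against 1.49, 1.05 and 2.54 TPM in A549 DMSO libraries (log2 difference 3.49 ± 0.16 SE, adjusted p = 1.18e-08). COL6A1 and COL6A2, chains of the beaded collagen VI filaments, rose together. COL6A1 averaged 30.9 ± 2.61 TPM in LB DMSO and 11.3 ± 0.705 TPM in A549 DMSO (log2 difference 1.37), and COL6A2 17.6 ± 2.48 TPM in LB DMSO and 7.46 ± 0.928 TPM in A549 DMSO (log2 difference 1.13, SD, n = 3 each). COL6A3, the third chain of the classical collagen VI trimer, did not exceed 0.35 TPM in any library. COL18A1, a basement membrane collagen that yields endostatin, fell to 59.7 ± 2.14 TPM in LB DMSO, against 96.5 ± 4.39 TPM in A549 DMSO (log2 difference -0.68). The exons of COL18A1 overlap those of SLC19A1 on the opposite strand over 16.4% of their bases, and whether counting used strand was not stated, so its level is uncertain to that extent. COL7A1, COL12A1, COL16A1 and COL21A1 did not pass. COL7A1, the anchoring fibril collagen of epithelium, averaged 62.8 ± 7.99 TPM in LB DMSO and 76.8 ± 23.4 TPM in A549 DMSO (SD, n = 3 each), with overlapping groups.

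The fibrillar collagens split. COL5A1, a chain of collagen V that starts collagen fibrils, fell to 14.3, 10.8 and 12.6 TPM in LB DMSO, against 26.6, 27.4 and 24.8 TPM in A549 DMSO (log2 difference -1.02 ± 0.094 SE, adjusted p = 5.03e-06). COL5A2, the partner chain of the same trimer, rose to 123, 116 and 123 TPM in LB DMSO, against 64.1, 59.8 and 74.3 TPM in A549 DMSO (log2 difference 0.86 ± 0.071 SE, adjusted p = 1.78e-06). The COL5A2 to COL5A1 ratio of TPM, a comparison per transcript length, was 9.72 ± 1.10 in LB DMSO and 2.53 ± 0.423 in A549 DMSO (SD, n = 3 each), with no overlap. COL1A1 rose to 8.40, 8.13 and 8.61 TPM in LB DMSO, against 4.89, 3.26 and 4.25 TPM in A549 DMSO (log2 difference 0.88 ± 0.17 SE, adjusted p = 0.00159), while COL1A2, its partner in type I collagen, did not exceed 0.15 TPM in any library. COL27A1 did not pass (adjusted p = 0.296).

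Of the 7 tested laminin chains, 2 were higher and 2 lower in LB DMSO than in A549 DMSO. LAMC1, the gamma chain of most basement membrane laminins, averaged 132 ± 9.56 TPM in LB DMSO and 91.3 ± 6.09 TPM in A549 DMSO (log2 difference 0.53 ± 0.080 SE, adjusted p = 2.86e-04). LAMB1, a beta chain of the same trimers, averaged 113 ± 4.78 TPM in LB DMSO and 126 ± 2.55 TPM in A549 DMSO (log2 difference -0.16 ± 0.054 SE, adjusted p = 0.0369). This small fall was not past the threshold in 4 of the 12 fits that left out a library, with an adjusted p of 0.097 (no A549 DMSO replicate 1), 0.0717 (no A549 DMSO replicate 2), 0.119 (no LB DMSO replicate 2) and 0.109 (no LB DMSO replicate 3). LAMA5, the main adult epithelial alpha chain, was the highest laminin, at 170.3 ± 19.4 TPM in LB DMSO and 202 ± 39.8 TPM in A549 DMSO, and did not pass (adjusted p = 0.213). LAMA3 and LAMB3, chains of a laminin that anchors epithelium to hemidesmosomes, moved in opposite directions. LAMB3 fell to 3.31 ± 0.445 TPM in LB DMSO, against 6.63 ± 0.963 TPM in A549 DMSO (log2 difference -0.82 ± 0.13 SE, adjusted p = 3.75e-04). LAMA3 rose to 14.9 ± 1.81 TPM in LB DMSO, against 9.40 ± 2.80 TPM in A549 DMSO (log2 difference 0.65 ± 0.19 SE, adjusted p = 0.0208), a call lost on leaving out a library, with an adjusted p of 0.0756 (no A549 DMSO replicate 2), 0.0763 (no LB DMSO replicate 1) and 0.0539 (no LB DMSO replicate 2). LAMB2 averaged 74.5 ± 7.32 TPM in LB DMSO and 65.7 ± 12.6 TPM in A549 DMSO, with overlapping groups.

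Of the MMPs, 6 of 22 were tested. MMP2 (chr16:55389700-55506691), gelatinase A, which cuts collagen IV, had 11.8, 12.2 and 10.7 TPM in LB DMSO libraries against 1.04, 1.04 and 1.37 TPM in A549 DMSO libraries (log2 difference 2.55 ± 0.10 SE, adjusted p = 3.68e-09). MMP14, the membrane protease that activates MMP2, averaged 1.38 ± 0.317 TPM in LB DMSO and 1.71 ± 0.413 TPM in A549 DMSO, with overlapping groups. MMP17, a membrane-anchored MMP, rose to 28.9 ± 0.824 TPM in LB DMSO, against 17.7 ± 2.38 TPM in A549 DMSO (log2 difference 0.69 ± 0.098 SE, adjusted p = 1.81e-04). MMP24, another membrane-type MMP, fell to 16.9 ± 1.89 TPM in LB DMSO, against 41.7 ± 2.64 TPM in A549 DMSO (log2 difference -1.26 ± 0.11 SE, adjusted p = 4.47e-06). MMP24 shares 18.1% of its exon bases with the opposite-strand gene MMP24OS, so its level is uncertain if strand was not used. MMP15, also membrane-type, fell to 13.8 ± 0.842 TPM in LB DMSO, against 16.9 ± 0.463 TPM in A549 DMSO (log2 difference -0.28 ± 0.071 SE, adjusted p = 0.0102). MMP7, matrilysin, a small secreted MMP of epithelium, was the most abundant MMP in both lines, at 54.6, 67.7 and 55.2 TPM in LB DMSO and 58.4, 76.7 and 80.2 TPM in A549 DMSO, with overlapping values (adjusted p = 0.118).

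MMP7 lies in a cluster of 9 MMP genes of the set on chromosome 11, and the other 8 (MMP1, MMP3, MMP8, MMP10, MMP12, MMP13, MMP20 and MMP27) did not exceed 0.16 TPM in any library. The promoter windows of MMP7 and MMP10, stromelysin 2, are printed because the genes share motif letters but not levels. They are at chr11:102530698-102530997, minus strand (MMP7) and chr11:102780579-102780878, minus strand (MMP10), in GRCh38.p14 from RefSeq, and capitals mark the same motifs as above.
MMP7: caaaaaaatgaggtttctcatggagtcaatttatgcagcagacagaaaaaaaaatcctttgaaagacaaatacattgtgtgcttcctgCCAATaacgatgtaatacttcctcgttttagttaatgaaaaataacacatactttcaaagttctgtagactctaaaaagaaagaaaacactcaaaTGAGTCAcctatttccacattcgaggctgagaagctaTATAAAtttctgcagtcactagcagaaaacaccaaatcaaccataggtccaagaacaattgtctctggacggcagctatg
MMP10: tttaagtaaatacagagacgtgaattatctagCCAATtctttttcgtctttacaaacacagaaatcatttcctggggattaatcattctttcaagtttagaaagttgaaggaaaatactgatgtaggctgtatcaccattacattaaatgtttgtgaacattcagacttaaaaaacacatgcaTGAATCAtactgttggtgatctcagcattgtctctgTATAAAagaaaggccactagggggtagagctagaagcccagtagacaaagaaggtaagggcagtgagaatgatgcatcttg
Both hold a TGANTCA match whose first base is 67 bases before the start, and a TATAAA match at 30 bases before it in MMP7 and 31 in MMP10. Both also hold a CCAAT match farther upstream, at 162 and 218 bases. Their windows are 35.7% and 36.3% G or C. MMP7 had 54.62 to 80.22 TPM over the 12 libraries, while MMP10 had at most 0.16 TPM.

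Among the ADAMTS proteases, 7 of 19 were tested. ADAMTS12, which cuts cartilage oligomeric matrix protein, rose to 5.92, 4.85 and 5.26 TPM in LB DMSO libraries, against 0.57, 0.60 and 0.61 TPM in A549 DMSO (log2 difference 1.99 ± 0.10 SE, adjusted p = 2.90e-08). ADAMTS9, a versican-cutting protease, fell to 0.27, 0.21 and 0.14 TPM in LB DMSO, against 4.11, 3.64 and 4.75 TPM in A549 DMSO (log2 difference -2.09 ± 0.16 SE, adjusted p = 9.70e-07). Neither overlapped between lines. ADAMTS16 fell to 0.64, 1.04 and 0.22 TPM in LB DMSO, against 5.01, 1.51 and 3.76 TPM in A549 DMSO (log2 difference -1.38 ± 0.28 SE, adjusted p = 0.00259). ADAMTS10, which acts on fibrillin microfibrils, averaged 19.2 ± 0.265 TPM in LB DMSO and 30.2 ± 5.32 TPM in A549 DMSO (log2 difference -0.61 ± 0.19 SE, adjusted p = 0.0283). That call was lost on leaving out a library, with an adjusted p of 0.107 (no A549 DMSO replicate 1), 0.0626 (no LB DMSO replicate 1), 0.0726 (no LB DMSO replicate 2) and 0.0649 (no LB DMSO replicate 3). ADAMTS7, ADAMTS13 (which cuts von Willebrand factor) and ADAMTS15 did not pass.

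TIMP1, the most abundant inhibitor, had 237, 256 and 251 TPM in LB DMSO libraries against 192, 194 and 196 TPM in A549 DMSO libraries (log2 difference 0.35 ± 0.043 SE, adjusted p = 5.37e-05), a small rise with no overlap. TIMP2, which binds MMP14 to recruit MMP2, had 88.98, 83.2 and 81.3 TPM in LB DMSO and 79.1, 89.95 and 79.9 TPM in A549 DMSO, with overlapping values (log2 difference 0.028 ± 0.064 SE, adjusted p = 0.779). TIMP4 fell to 3.89 ± 0.345 TPM in LB DMSO, against 7.44 ± 0.580 TPM in A549 DMSO (log2 difference -0.79 ± 0.14 SE, adjusted p = 9.04e-04). TIMP4 shares 10.3% of its exon bases with SYN2 on the opposite strand, and SPARC and TIMP2 share 7.89% and 6.52% of theirs with antisense genes. TIMP3 did not exceed 0.06 TPM in any library.

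**Figure D3:**
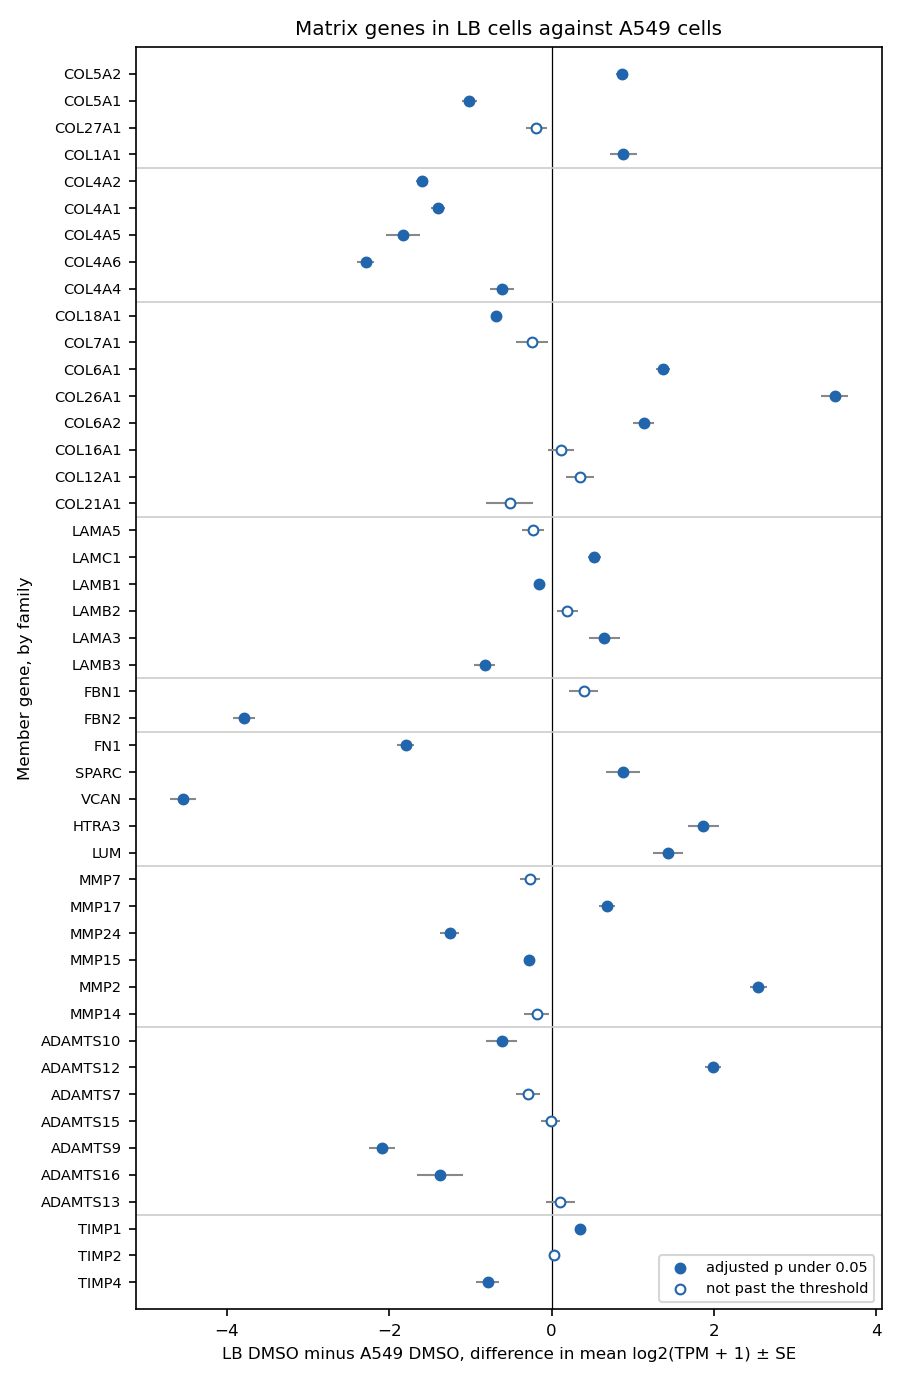
Log2 difference of LB DMSO minus A549 DMSO on log2(TPM + 1) for 46 tested matrix genes, with SE as bars; filled points passed an adjusted p of 0.05. VCAN (-4.54) and FBN2 (-3.79) lie farthest to the left and COL26A1 (3.49) and MMP2 (2.55) farthest to the right.

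Genes that build, bind and cut these proteins were counted on separate lists, in the same fit. Over all 13968 genes 14.2% were higher and 18.2% lower, and the counts below are to be read against these shares. Of the calls checked on these lists, those of ADAMTSL4, SMAD7 and TGFBR3 were lost in 3 to 7 of the 12 fits that left out a library. Of 20 tested collagen modification and assembly genes, 7 were higher and 2 lower in LB DMSO than in A549 DMSO, with PLOD3, a lysyl hydroxylase, averaging 74.8 ± 3.80 TPM in LB DMSO and 46.5 ± 5.40 TPM in A549 DMSO (log2 difference 0.68). Of 25 other basement membrane and matrix glycoproteins, 5 were higher and 9 lower, among them SPP1, osteopontin, at log2 difference 1.85, FRAS1 at -2.24 and HSPG2, perlecan, at -0.84. Of 15 integrins and matrix receptors, 7 were higher and 5 lower. ITGB4, which pairs in the receptor for hemidesmosome laminin, averaged 9.40 ± 2.22 TPM in LB DMSO and 61.1 ± 11.9 TPM in A549 DMSO (log2 difference -2.58), and ITGB3 had a log2 difference of 1.53. Of 9 genes of the plasminogen system, which activates MMPs, 6 were lower and 1 was higher, namely PLAUR, the urokinase receptor, at 0.60. Of 13 other metalloproteases and inhibitors 6 were higher and 3 lower, of 8 proteoglycans 3 were higher and 1 lower, and of 14 TGF-beta ligands, receptors and targets 1 was higher and 6 lower. The median log2 difference of these lists ran from -0.42 (plasminogen system) to 0.39 (other metalloproteases), against -0.035 over all genes.

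Amiodarone changed few of the matrix genes, with HTRA3 and COL5A1 lower and LUM and MMP17 higher. In LB amiodarone against LB DMSO cells, 2 of the 47 were higher and 2 lower (8.51% past an adjusted p of 0.05), while 8.62% of all genes passed, 4.90% higher and 3.72% lower, so the share of matrix genes was near the background. The median log2 difference was -0.055, against -0.0027 over all genes. HTRA3 had 4.22, 4.03 and 4.96 TPM in LB amiodarone against 11.2, 10.8 and 13.4 TPM in LB DMSO (log2 difference -1.24 ± 0.19 SE, adjusted p = 0.00206). The highest amiodarone library was below each LB DMSO library, and the call held with each library left out. COL5A1 had 9.45, 9.10 and 9.72 TPM in LB amiodarone against 14.3, 10.8 and 12.6 TPM in LB DMSO (log2 difference -0.37 ± 0.094 SE, adjusted p = 0.0313). LUM had 3.64, 3.79 and 6.21 TPM in LB amiodarone against 2.67, 2.79 and 1.86 TPM in LB DMSO (log2 difference 0.67 ± 0.19 SE, adjusted p = 0.0483). MMP17 had 36.1, 40.5 and 38.5 TPM in LB amiodarone against 29.6, 29.01 and 27.99 TPM in LB DMSO (log2 difference 0.40 ± 0.098 SE, adjusted p = 0.028). None of these groups overlapped. Of the 4 calls, 3 depended on single libraries.

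With 1 library left out, the adjusted p of COL5A1 was 0.0736 (no LB amiodarone replicate 1), 0.0961 (no LB amiodarone replicate 2), 0.0642 (no LB amiodarone replicate 3), 0.116 (no LB DMSO replicate 1) and 0.0922 (no LB DMSO replicate 3). That of MMP17 was 0.0964 (no LB amiodarone replicate 2), 0.0777 (no LB amiodarone replicate 3), 0.0652 (no LB DMSO replicate 1), 0.0706 (no LB DMSO replicate 2) and 0.0922 (no LB DMSO replicate 3). That of LUM, a gene of low level, missed the threshold in 11 of the 12 such fits, without each of the 9 LB libraries in turn and without A549 DMSO replicates 1 and 3, at 0.0514 to 0.169. With the replicate number as a block it was 0.0715.

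Several genes named in the line comparison did not pass under amiodarone. COL4A1 had 10.8, 10.1 and 10.9 TPM in LB amiodarone and 11.2, 9.53 and 10.7 TPM in LB DMSO, and COL4A2 23.7, 22.4 and 24.3 TPM in LB amiodarone and 24.2, 21.9 and 25.1 TPM in LB DMSO, with overlapping values. FN1 had 14.1, 17.6 and 14.4 TPM in LB amiodarone and 16.3, 16.8 and 14.8 TPM in LB DMSO (adjusted p = 0.805), also overlapping. MMP2 had 8.28, 9.86 and 9.02 TPM in LB amiodarone and 11.8, 12.2 and 10.7 TPM in LB DMSO, without overlap but short of the threshold (log2 difference -0.32 ± 0.10 SE, adjusted p = 0.0779). It passed with a pseudocount of 5 (adjusted p = 0.0372) and with quantile normalization (0.0469). TIMP2 likewise did not overlap, at 98.5, 102 and 92.7 TPM in LB amiodarone and 88.98, 83.2 and 81.3 TPM in LB DMSO (log2 difference 0.21 ± 0.064 SE, adjusted p = 0.065), and passed without A549 DMSO replicate 2 (adjusted p = 0.0339) and with the replicate number as a block (0.0415). TIMP1 had 253, 264 and 248 TPM in LB amiodarone and 237, 256 and 251 TPM in LB DMSO, all overlapping. SPARC had 11.1, 8.13 and 11.8 TPM in LB amiodarone and 8.97, 8.24 and 11.8 TPM in LB DMSO, also overlapping. Over the other lists, 3 of 20 collagen modification genes were higher and 1 lower, against 4.90% and 3.72% of all genes. P4HA1, a prolyl hydroxylase of collagen folding, averaged 42.6 ± 5.09 TPM in LB amiodarone and 26.2 ± 1.21 TPM in LB DMSO (log2 difference 0.67 ± 0.099 SE, adjusted p = 0.00133). SPP1 was 1 of 2 of 25 glycoprotein genes that rose (log2 difference 0.74). Of 15 receptors 1 was higher and 1 was lower, BCAM, a laminin receptor (log2 difference -0.51). Of 9 plasminogen system genes 1 was higher, PLAT. The calls of P4HA1, SPP1 and BCAM held with each library left out. The other 6 (LOXL2, PLOD2 and PPIB of the collagen modification list, NID1, DAG1 and PLAT), named after their values were seen, were lost in 5 to 10 of the 12 fits that left out a library. With limma 0 of 8 proteoglycans, 0 of 13 other metalloproteases and 0 of 14 TGF-beta genes passed, and 0, 4 and 3 of them had an unadjusted p under 0.05.

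With HPbCD added to amiodarone, MMP2, COL5A1, COL1A1, COL26A1 and FN1 were lower and TIMP1 was higher than with amiodarone alone. These 6 are 12.8% of the 47 (10.6% lower and 2.13% higher), against 4.07% of all genes (1.36% lower and 2.71% higher). With library sizes rescaled by the median of ratios, 2 of the matrix genes were higher and 5 lower, so that 28.6% of calls were higher in place of 16.7%. LB amiodarone libraries are used both here and in the comparison above, so the pair is not independent. The median log2 difference was -0.050, against -0.0081 over all genes.

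MMP2 had 4.74, 5.40 and 5.16 TPM in combined-treatment libraries against 8.28, 9.86 and 9.02 TPM in LB amiodarone (log2 difference -0.72 ± 0.10 SE, adjusted p = 0.0021). COL5A1 had 5.45, 5.41 and 5.85 TPM in combined-treatment libraries against 9.45, 9.10 and 9.72 TPM in LB amiodarone (log2 difference -0.67 ± 0.094 SE, adjusted p = 0.00184). Neither gene's groups overlapped, and both calls held with each library left out. COL1A1 (chr17:50183289-50201632) had 2.60, 3.78 and 4.33 TPM in combined-treatment libraries against 6.56, 6.67 and 9.25 TPM in LB amiodarone (log2 difference -0.90 ± 0.17 SE, adjusted p = 0.0109), with an adjusted p of 0.0509 without LB amiodarone replicate 3, the highest of them. COL26A1 had 11.6, 13.2 and 10.2 TPM in combined-treatment libraries against 22.7, 21.3 and 20.4 TPM in LB amiodarone (log2 difference -0.83 ± 0.16 SE, adjusted p = 0.0135). FN1 had 9.25, 11.8 and 9.60 TPM in combined-treatment libraries against 14.1, 17.6 and 14.4 TPM in LB amiodarone (log2 difference -0.54 ± 0.11 SE, adjusted p = 0.0129). Each of these 3 groups lay below the amiodarone libraries without overlap. TIMP1 moved the other way, with 279.9, 298 and 292 TPM in combined-treatment libraries against 253, 264 and 248 TPM in LB amiodarone (log2 difference 0.19 ± 0.043 SE, adjusted p = 0.0323). Among the processing settings, the COL26A1 call was lost with a pseudocount of 0.1 and the FN1 call with a fit of 2 groups. The TIMP1 call was lost with quantile normalization, without a filter, with limma without trend and with a fit of 2 groups. Its adjusted p reached 0.290 among these settings, and its log2 difference fell as low as 0.105. The COL5A2 to COL5A1 ratio was 19.4 ± 1.45 in combined-treatment libraries and 12.3 ± 0.217 in LB amiodarone (SD, n = 3 each), with COL5A2 itself at 108 ± 3.64 TPM in combined-treatment libraries and 116 ± 5.49 TPM in LB amiodarone (adjusted p = 0.498).

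The sum of the 7 fibroblast markers outside the set, given above, overlapped between these groups. ACTA2, the largest part of that sum, overlapped too. THY1 lay lower without overlap, at 3.31, 2.83 and 1.79 TPM in combined-treatment libraries against 6.28, 4.54 and 4.48 TPM in LB amiodarone. The sum of the leukocyte markers lay lower in combined-treatment libraries. The part of all these markers in these results was not tested. With 1 library left out, the call of FN1 had an adjusted p of 0.0526 (no LB amiodarone replicate 2), 0.0653 (no combined-treatment replicate 1) and 0.0581 (no combined-treatment replicate 3). That of COL26A1 was 0.0566 (no LB amiodarone replicate 1), 0.0534 (no combined-treatment replicate 1) and 0.0651 (no combined-treatment replicate 3), and that of TIMP1 0.0957 (no LB amiodarone replicate 1), 0.118 (no LB amiodarone replicate 3), 0.0525 (no combined-treatment replicate 1), 0.114 (no combined-treatment replicate 2) and 0.111 (no combined-treatment replicate 3).

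Other abundant or central genes did not pass. COL4A1 had 12.7, 11.01 and 10.5 TPM in combined-treatment libraries and 10.8, 10.1 and 10.9 TPM in LB amiodarone, with overlap, and COL4A2 had 27.01, 28.1 and 25.9 TPM in combined-treatment libraries and 23.7, 22.4 and 24.3 TPM in LB amiodarone (adjusted p = 0.152). TIMP2 had 106, 105 and 96.7 TPM in combined-treatment libraries and 98.5, 102 and 92.7 TPM in LB amiodarone, with overlap. SPARC had 8.04, 6.72 and 7.21 TPM in combined-treatment libraries and 11.1, 8.13 and 11.8 TPM in LB amiodarone (adjusted p = 0.305). Over all genes 2.71% were higher and 1.36% lower. Of the other lists, 2 of 9 plasminogen system genes were higher, namely SERPINE2, a serine protease inhibitor, at 66.6 ± 2.66 TPM in combined-treatment libraries and 39.3 ± 0.968 TPM in LB amiodarone (log2 difference 0.74 ± 0.10 SE, adjusted p = 0.00182), and PLAUR at 75.5 ± 3.48 TPM in combined-treatment libraries and 48.9 ± 0.397 TPM in LB amiodarone (log2 difference 0.62 ± 0.060 SE, adjusted p = 1.02e-04). Of 15 receptors 2 were higher, among them CD44, the hyaluronan receptor (log2 difference 0.45), and 1 was lower, BCAM (log2 difference -0.60). Of 8 proteoglycans 2 were higher, and of 25 glycoproteins 1 was higher and 1 lower. Of 20 collagen modification genes 1 was lower. These last 5 calls (SRGN, SDC4, SMOC1, LTBP1 and PCOLCE2), named after their values were seen, were each lost in 4 to 10 of the 12 fits that left out a library. With limma 0 of 13 other metalloproteases and 0 of 14 TGF-beta genes passed, and 1 and 1 of them had an unadjusted p under 0.05.

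**Figure D4:**
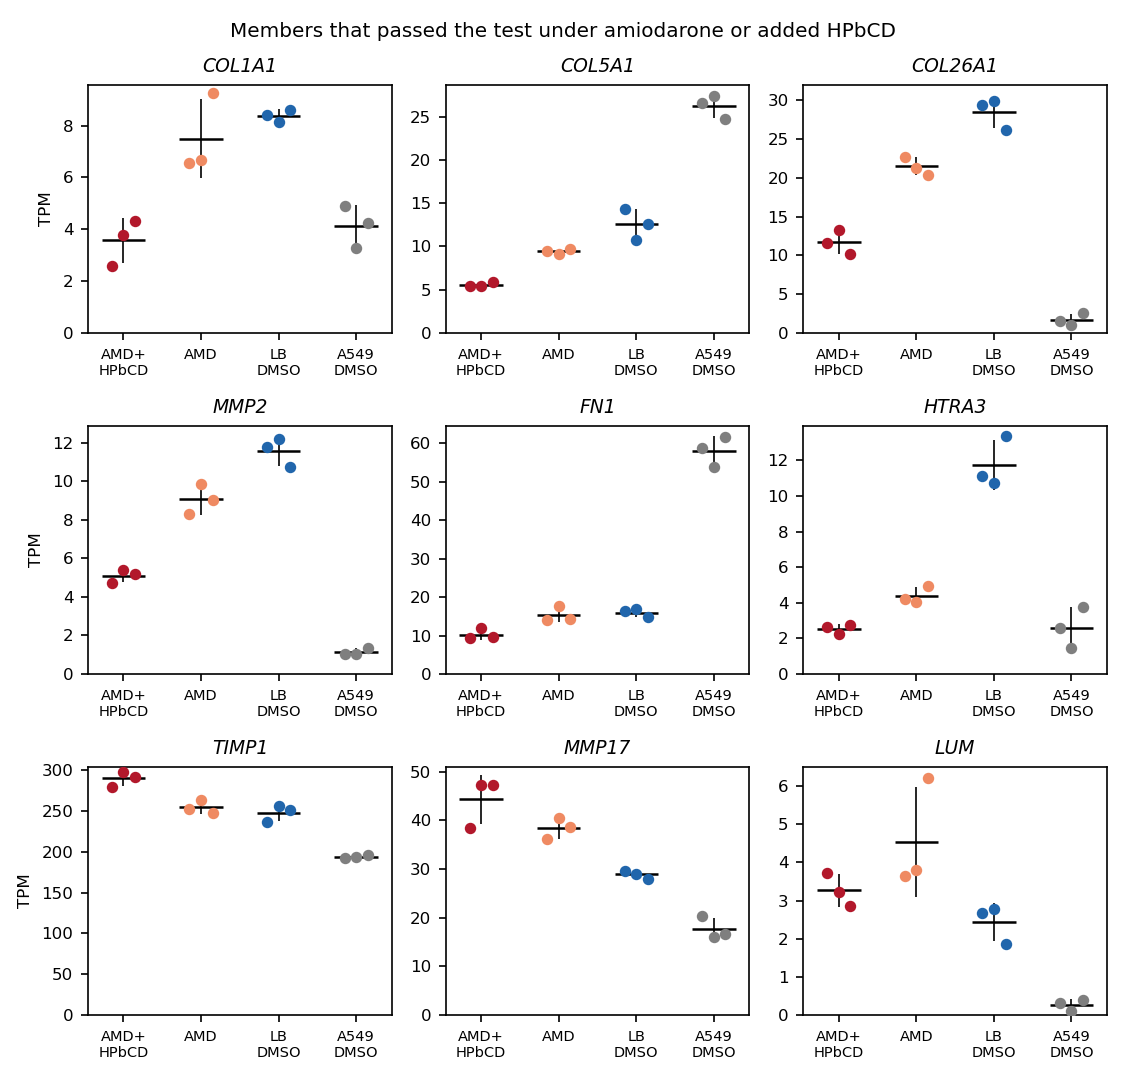
TPM in each library of 9 matrix genes that passed in a treatment comparison; points are libraries, horizontal lines group means and vertical lines SD (n = 3), with combined-treatment LB cells at the left and A549 DMSO cells at the right. MMP2 and COL5A1 are lower in combined-treatment libraries (4.74 to 5.40 and 5.41 to 5.85 TPM) than in LB amiodarone libraries.

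Set against LB DMSO cells, combined treatment gave 10 lower and 3 higher genes of the 47 (27.7%, 21.3% lower and 6.38% higher), while 17.9% of all genes passed, 7.81% lower and 10.1% higher. The median log2 difference was -0.11, against -0.018 over all genes. The LB DMSO libraries are shared with the amiodarone comparison. Besides the 5 genes lower against amiodarone alone, HTRA3, ADAMTS10, LAMB2, ADAMTS15 and MMP24 were lower. HTRA3 had 2.63, 2.23 and 2.77 TPM in combined-treatment libraries against 11.2, 10.8 and 13.4 TPM in LB DMSO (log2 difference -1.85 ± 0.19 SE, adjusted p = 4.17e-05). COL26A1 had 11.6, 13.2 and 10.2 TPM in combined-treatment libraries against 29.4, 29.9 and 26.1 TPM in LB DMSO (log2 difference -1.22 ± 0.16 SE, adjusted p = 2.76e-04). MMP2 had 4.74, 5.40 and 5.16 TPM in combined-treatment libraries against 11.8, 12.2 and 10.7 TPM in LB DMSO (log2 difference -1.04 ± 0.10 SE, adjusted p = 2.79e-05). In each of these 3, the combined-treatment libraries lay apart from and below LB DMSO. COL5A1 averaged 5.57 ± 0.243 TPM in combined-treatment libraries and 12.5 ± 1.77 TPM in LB DMSO (log2 difference -1.04 ± 0.094 SE, adjusted p = 1.16e-05). COL1A1 averaged 3.57 ± 0.884 TPM in combined-treatment libraries and 8.38 ± 0.241 TPM in LB DMSO (log2 difference -1.06 ± 0.17 SE, adjusted p = 0.00107). FN1 averaged 10.2 ± 1.41 TPM in combined-treatment libraries and 16.0 ± 1.01 TPM in LB DMSO (log2 difference -0.60 ± 0.11 SE, adjusted p = 0.00191). ADAMTS10 had 6.45, 11.8 and 7.78 TPM in combined-treatment libraries against 19.5, 18.9 and 19.2 TPM in LB DMSO (log2 difference -1.10 ± 0.19 SE, adjusted p = 0.002). Its groups did not overlap.

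MMP17, TIMP2 and TIMP1 were the genes that were higher under combined treatment than in LB DMSO cells. MMP17 had 38.5, 47.3 and 47.2 TPM in combined-treatment libraries against 29.6, 29.01 and 27.99 TPM in LB DMSO (log2 difference 0.60 ± 0.098 SE, adjusted p = 0.00128). TIMP2 had 106, 105 and 96.7 TPM in combined-treatment libraries against 88.98, 83.2 and 81.3 TPM in LB DMSO (log2 difference 0.28 ± 0.064 SE, adjusted p = 0.0106). TIMP1 had 279.9, 298 and 292 TPM in combined-treatment libraries against 237, 256 and 251 TPM in LB DMSO (log2 difference 0.23 ± 0.043 SE, adjusted p = 0.00337). The groups did not overlap for any of the 3. COL4A1, COL4A2 and SPARC, whose library values are given above, did not pass in this comparison (adjusted p = 0.449, 0.088 and 0.287 with limma). Among them COL4A2 lay higher and SPARC lower in combined-treatment libraries without overlap, and COL4A1 overlapped. The calls of LAMB2, ADAMTS15 and MMP24 were small and depended on libraries. LAMB2 had 50.1, 61.2 and 52.1 TPM in combined-treatment libraries against 77.5, 79.8 and 66.2 TPM in LB DMSO (log2 difference -0.45 ± 0.13 SE, adjusted p = 0.0351), with an adjusted p of 0.122 (no combined-treatment replicate 1), 0.102 (no combined-treatment replicate 3), 0.105 (no LB DMSO replicate 1) and 0.112 (no LB DMSO replicate 2). ADAMTS15 had 1.55, 1.89 and 1.68 TPM in combined-treatment libraries against 2.57, 2.65 and 2.73 TPM in LB DMSO (log2 difference -0.43 ± 0.12 SE, adjusted p = 0.0253), with an adjusted p of 0.0908 (no combined-treatment replicate 1), 0.0679 (no combined-treatment replicate 3), 0.0574 (no LB DMSO replicate 1), 0.0632 (no LB DMSO replicate 2) and 0.0757 (no LB DMSO replicate 3). MMP24 had 12.98, 14.3 and 10.8 TPM in combined-treatment libraries against 17.02, 18.7 and 14.9 TPM in LB DMSO (log2 difference -0.39 ± 0.11 SE, adjusted p = 0.0341), with an adjusted p of 0.0709 (no combined-treatment replicate 1), 0.129 (no combined-treatment replicate 3), 0.0905 (no LB DMSO replicate 1) and 0.121 (no LB DMSO replicate 2).

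Over all genes 10.1% were higher and 7.81% lower, and several of the other lists lay near the 17.9% called in all. Combined treatment against LB DMSO gave 4 of 20 collagen modification genes higher and 1 lower, with P4HA1 at log2 difference 0.81. It gave 4 of 25 glycoproteins higher and 4 lower, 5 of 15 receptors higher and 2 lower, and 3 of 9 plasminogen system genes higher. It gave 2 of 13 other metalloproteases and 1 of 8 proteoglycans higher. CD44 averaged 242 ± 11.2 TPM in combined-treatment libraries and 178 ± 3.78 TPM in LB DMSO (log2 difference 0.44), and BCAM 27.4 ± 1.40 TPM in combined-treatment libraries and 60.3 ± 3.88 TPM in LB DMSO (log2 difference -1.11). The TGF-beta list had 3 of 14 genes lower, among them TGFB1 at log2 difference -0.26. Of the calls checked on these lists, those of ADAM17, ITGB3, SKIL, TGFBI and THBS3 were lost in 3 to 8 of the 12 fits that left out a library.

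**Figure D5:**
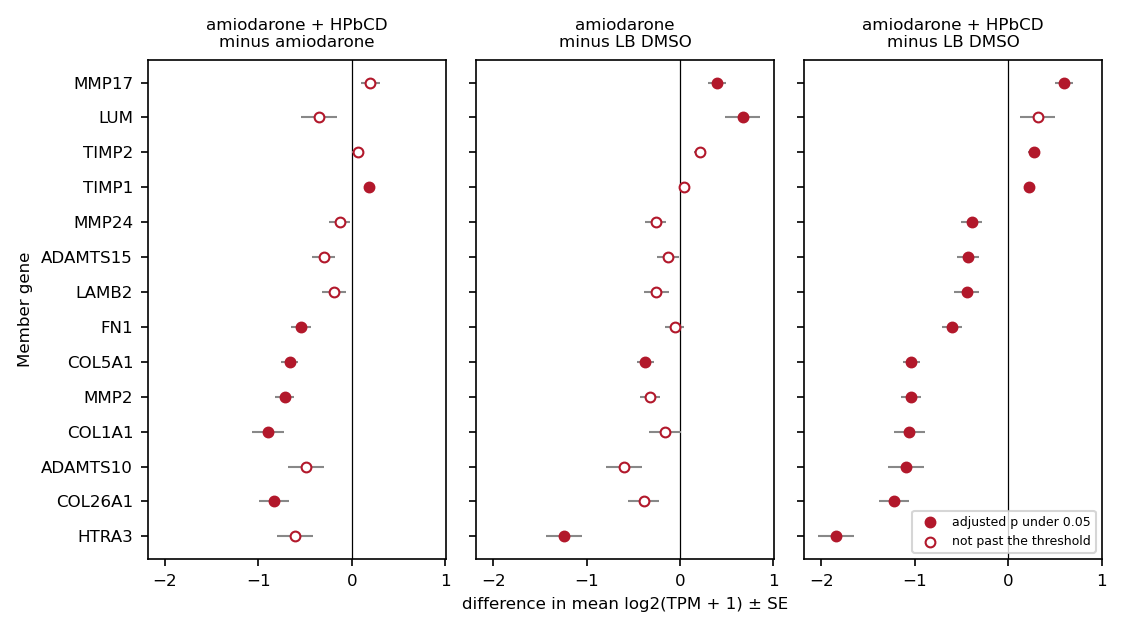
Log2 differences on log2(TPM + 1), with SE, of the matrix genes that passed in any of the 3 comparisons among LB cells, drawn from left to right for combined treatment against amiodarone, amiodarone against LB DMSO and combined treatment against LB DMSO; filled points passed an adjusted p of 0.05. HTRA3 shows the largest differences against LB DMSO, -1.85 with combined treatment and -1.24 with amiodarone.

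The remaining 63 genes were under the filter and were not tested. Of these 45 never reached 0.5 TPM in a library, and the highest single value was 1.78 TPM (LAMA2). In 5 a group mean reached 1 TPM, namely COL4A3, LAMA4 (0.29 to 1.58 TPM over the 12 libraries), MMP11 (0.31 to 1.71 TPM), MMP28 (0.15 to 1.25 TPM) and COL13A1 (0.28 to 1.36 TPM). Some stromal collagens were among the low genes, but not COL5A2, a fibrillar collagen, with 59.83 to 123.02 TPM over the 12 libraries. COL3A1, a fibrillar collagen of connective tissue, did not exceed 0.66 TPM, and LOX, the enzyme that crosslinks collagen, did not exceed 0.44 TPM. MMP9, gelatinase B, did not exceed 0.24 TPM, against 1.04 to 12.19 TPM for MMP2, the other gelatinase.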

How the data were processed

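RNA was read as 100-bp pairs from 12 stranded mRNA libraries (4 groups of 3), per the labels' protocols. The authors deposited TPM per gene symbol and library, made with STAR 2.7.3a and RSEM 1.3.1 on GRCh38, per the submitters' processing notes. The annotation release, and whether strand was used in counting, are not given in the sources used here. Of 57189 rows 37 held no value. TPM keeps no depth, so no count model or counting interval was possible, and a strong change of some genes shifts the TPM of others.

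Groups were taken from the labels. The 13968 genes averaging 1 TPM or more across the 12 libraries were tested with limma 3.58.1 in R 4.3.3 on log2(TPM + 1), with a mean-variance trend and all 4 groups in 1 fit (8 residual degrees of freedom), two-sided, Benjamini-Hochberg adjusted over all tested genes, at 0.05. Fold changes on this scale understate those of low genes. The fit was tested on simulated data. The members and lists were chosen with earlier results of these data known. By rule, per-library values were for up to 12 members per comparison with the largest called difference. COL4A1, COL4A2, FN1, MMP2, TIMP1, TIMP2 and SPARC were to be given in any case. Further members outside the rule, such as COL5A1, COL5A2, COL1A1, COL4A4, COL4A3, ADAMTS16 and MMP7, also have library values printed. Some members, such as FN1 in combined treatment against LB DMSO, are given as means where their library values stand earlier. From the other lists up to 4 genes per comparison could be named. Here these are genes whose calls held with each library left out, and others only where a lost call is stated. A result under this rule is not reported here. Alternatives were the pseudocount, the filter, scaling, the limma settings, a replicate block, a fit of 2 groups and leaving out each library. Positions are from GENCODE 29 and promoter windows from RefSeq (GRCh38.p14).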

Additional observations from a re-analysis of the deposited data

How the results depend on the processing

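No called gene changed direction, but uncalled differences near 0 did, such as TIMP2 in LB DMSO against A549 DMSO cells (log2 0.03, -0.01 to 0.09) and SPARC under amiodarone (0.09, -0.01 to 0.24). In LB DMSO against A549 DMSO cells, 29 of 32 gene calls held in each setting that tested the gene, though 7 of the 29 fell under the filter in some, so that 25 were called when a mean of 5 TPM was required. Calls that held were 1 of 4 in amiodarone against LB DMSO, 2 of 6 in combined treatment against amiodarone and 10 of 13 in combined treatment against LB DMSO. For amiodarone against LB DMSO (2 higher, 2 lower), the higher count was 1 with a pseudocount of 0.1, a filter at a mean of 5 TPM, limma without trend or a fit of 2 groups, and 0 without a filter. The lower count was 4 with a pseudocount of 5 and 1 without a filter. For combined treatment against amiodarone (1 higher, 5 lower), the higher count was 2 with a pseudocount of 5 or median-of-ratios scaling, and 0 without a filter or with a fit of 2 groups. For combined treatment against LB DMSO (3 higher, 10 lower), the higher count was 5 with limma without trend and 4 with quantile normalization, and the lower count was 7 without a filter and 9 with limma without trend, median-of-ratios scaling or the 5 TPM filter. The cause of these shifts was not tested. Without a filter 104 of the genes were tested, and 16 were higher and 18 lower in LB DMSO than in A549 DMSO cells.

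With each library left out, the counts ranged from 13 to 15 higher and 14 to 18 lower (LB DMSO against A549 DMSO), 0 to 3 and 1 to 3 (amiodarone against LB DMSO), 0 to 1 and 3 to 6 (combined treatment against amiodarone), and 3 to 3 and 7 to 11 (combined treatment against LB DMSO). Without an A549 library 44 or 45 genes passed the filter. Over all genes, calls for amiodarone against LB DMSO were 1204, 628 to 1497 with a library left out and 832 without a filter, and those for combined treatment against amiodarone were 568, 280 to 825 with a library left out. Groups share replicate numbers, and the deviations of same-numbered libraries correlated at -0.065 to 0.212. Whether same-numbered libraries were handled together was not tested. With the replicate block, the counts were 14 higher and 18 lower, 2 and 2, 1 and 6, and 3 and 10 in those 4 comparisons. With 3 libraries a group and no depth, small differences of low genes such as LUM and ADAMTS15 were limited.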
